A study of Homo sapiens with 12 samples.

Results

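The 41 genes described here work in Fanconi crosslink repair, homologous recombination and the ATR checkpoint. They were taken by symbol from a list made with earlier results of these data known, though the rule itself uses no measured value, and all 41 were found among the 61860 gene identifiers of one count table and the 62700 of another. The cells were RT4, a human bladder cancer line. In the overexpression experiment, 3 libraries came from cells given an ITGB4 plasmid and 3 from its control, called vector here, by transfection or infection, all grown in McCoy's 5A medium with 10% serum. In the resistance experiment, 3 libraries titled RT4R, read here as resistant RT4, had cisplatin treatment and 3 of parental RT4 had PBS, all of wild-type genotype and grown in MEM with 10% serum. No dose or time of cisplatin is given in the labels. ITGB4 encodes the integrin beta-4 chain, and the title of the study ties it to a lower sensitivity to cisplatin.

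Cisplatin joins bases on the same strand or on opposite strands of DNA, and an interstrand crosslink blocks the replication fork. The Fanconi core complex, with the ubiquitin-conjugating enzyme UBE2T, then attaches ubiquitin to the pair FANCD2 and FANCI, nucleases cut the crosslinked strand, and the broken arm is restored by homologous recombination with the sister copy. BRCA1, BARD1, PALB2, BRCA2, RAD51B, RAD51C, RAD51D, XRCC2 and XRCC3 prepare the DNA ends for strand exchange, while ATR and CHEK1 hold the cell cycle in the meantime, and loss of these genes makes cells sensitive to crosslinking agents.

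Of the 41 repair genes, 18 (43.9%) rose with the ITGB4 plasmid and fell in resistant cells, against 16.6% of genes tested in both experiments. The reverse held for 4.88%, against 13.4% of genes tested in both. With the ITGB4 plasmid, 32 of the 41 genes were higher, 4 were lower and 5 did not pass the test, an adjusted p under 0.05 in edgeR's quasi-likelihood test. Over all 16950 genes tested, 72.2% passed, 36.5% higher and 35.7% lower. The median log2 change of the 41 was 0.39, against 0.0017 over all genes tested. In cisplatin-resistant cells 7 of the 41 were higher, 18 were lower and 16 did not pass, where 54.5% of 16875 genes passed, 26.8% higher and 27.7% lower. There the median log2 change of the 41 was -0.11, against 0.02 over all genes tested, but it moved with the scaling, to 0.06 with library sizes alone and -0.0010 with upper quartile factors, against 0.18 and 0.12 over all genes.

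**Figure D1:**
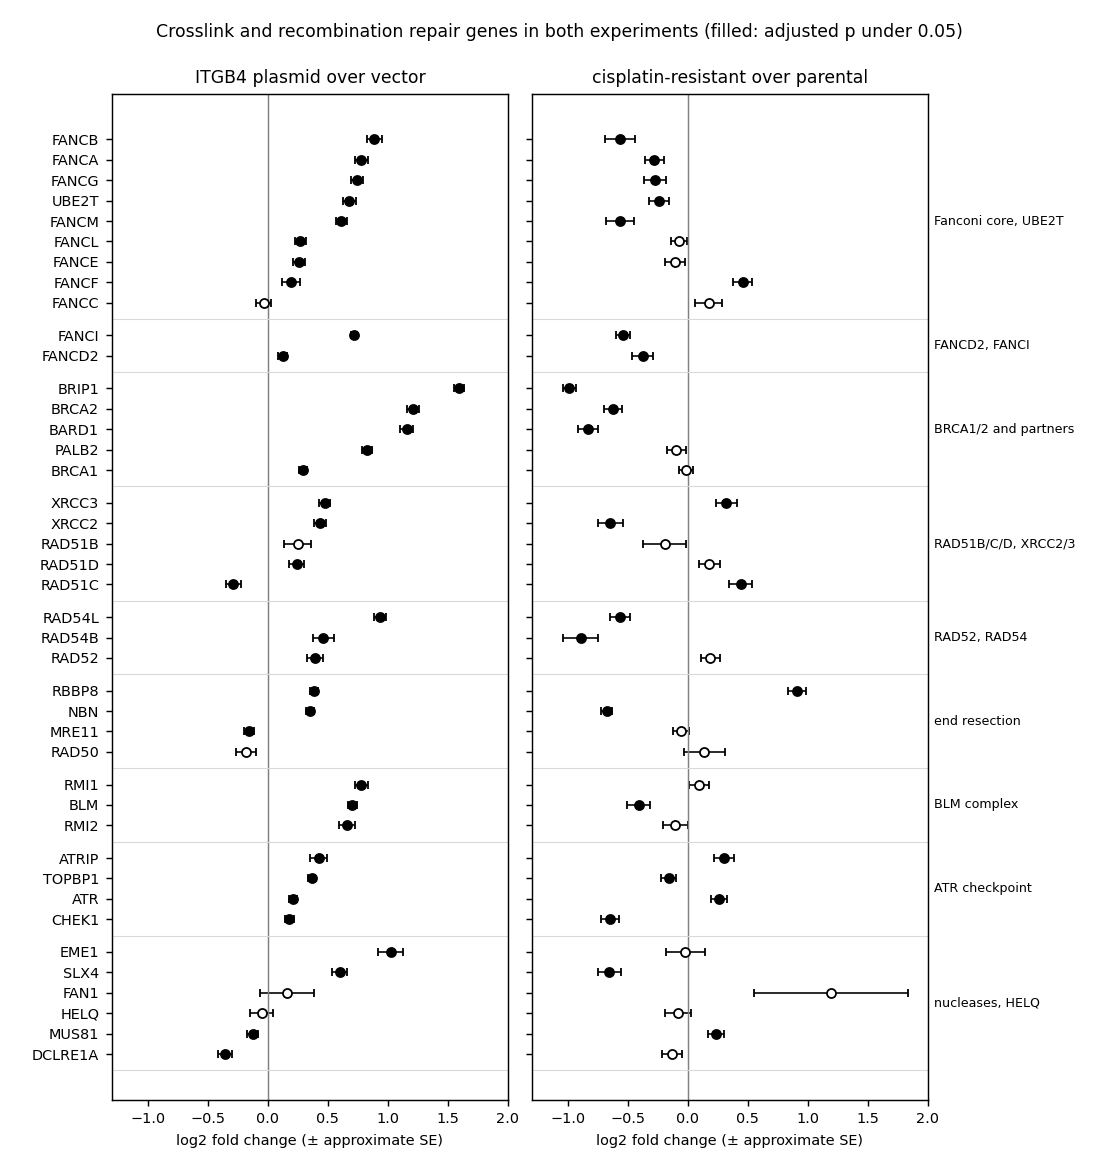
Log2 fold change of each of the 41 genes, grouped by role, for ITGB4 plasmid over vector and for cisplatin-resistant over parental cells. Points are fitted changes, bars are 1 approximate standard error to each side, and filled points passed the test. Most points lie to the right of 0 with the plasmid, and BRIP1, RAD54B and BARD1 lie farthest to the left in resistant cells. The open point of FAN1 has the widest bar.

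Total counts were 22701466 to 33352045 per library in the overexpression table and 31824582 to 38199946 in the resistance table. ITGB4 had 1485, 1379 and 1416 CPM (counts scaled to library size) in the plasmid libraries, against 858, 879 and 871 CPM in the vector libraries, 1.64-fold higher. It had 848, 831 and 832 CPM in resistant cells, against 602, 598 and 600 CPM in parental cells, 1.40-fold higher. The keratins KRT7, KRT8, KRT18 and KRT19, EPCAM and GATA3 were present in all libraries, while the urothelial differentiation keratin KRT20 was listed at 0 in both tables. The 5 immune markers summed to between 0.16 and 0.36 CPM in plasmid libraries and 0.035 and 0.23 CPM in vector libraries. In the resistance experiment they summed to between 0.16 and 0.36 CPM in resistant cells and 0.20 and 0.62 CPM in parental cells. The 6 fibroblast markers summed to at most 26.2 CPM in plasmid libraries and 52.3 CPM in vector libraries, most of it COL3A1, and to at most 5.81 CPM in resistant and 12.2 CPM in parental cells. The 3 endothelial markers stayed at or below 1.69 and 2.28 CPM with plasmid and vector, and 2.51 and 1.64 CPM in resistant and parental cells. Of 12 epithelial and urothelial markers tested, 7 rose and 5 fell with the plasmid, and 7 rose and 3 fell in resistant cells. The parental columns are headed NC, so their assignment is an inference, and without sample numbers they go by the letters a, b and c. The labels of libraries 2 and 3 in both overexpression groups name ITGB5 and ITGB6, where their titles name ITGB4. All levels are relative to the total RNA of a library, in which fewer cells expressing a gene and less RNA per cell cannot be told apart.

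The BRCA group, the genes that mediate recombination on resected DNA, held the 3 largest changes with the plasmid. All 5 of its genes rose with the plasmid, with a median log2 change of 1.16. In resistant cells 3 of the 5 fell, with a median of -0.62, and BRCA1 and PALB2 did not pass. BRIP1, a DNA helicase that binds BRCA1, had 74.5, 81.7 and 79.4 CPM in plasmid libraries, against 25.6, 26.9 and 25.8 CPM in vector libraries. Every plasmid library lay far above every vector library, and the fitted change was 3.01-fold (log2 1.59 ± 0.04 SE, adjusted p = 2.9e-15). It had 48.8, 51.8 and 55.5 CPM in resistant cells, against 102, 104 and 104 CPM in parental cells. No resistant library came near a parental one, and BRIP1 was 1.98-fold lower (log2 -0.99 ± 0.05 SE, adjusted p = 6.7e-11), the largest decrease among the 41.

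BARD1, the partner that BRCA1 needs to act as a ubiquitin ligase, had 38.9, 44.6 and 44.6 CPM in plasmid libraries, against 18.6, 19.6 and 19.4 CPM in vector libraries. It had 11.2, 12.4 and 12.5 CPM in resistant cells, against 21.5, 22.0 and 20.9 CPM in parental cells. BARD1 thus lay apart in both experiments, 2.23-fold higher with the plasmid (log2 1.16 ± 0.06 SE, adjusted p = 6.6e-12) and 1.78-fold lower in resistant cells (log2 -0.83 ± 0.08 SE, adjusted p = 1.9e-07). BRCA2, the central mediator of recombination on single-stranded DNA, had 55.4, 61.9 and 58.7 CPM in plasmid libraries, against 24.2, 25.01 and 26.7 CPM in vector libraries. In resistant cells BRCA2 had 26.9, 32.3 and 32.9 CPM, against 48.4, 48.7 and 45.1 CPM in parental cells. The groups did not overlap in either experiment, and the changes were 2.31-fold higher (log2 1.21 ± 0.05 SE) and 1.54-fold lower (log2 -0.62 ± 0.08 SE).

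PALB2, the bridge between BRCA1 and BRCA2, rose 1.78-fold with the plasmid, at 43.2 ± 0.84 CPM in plasmid libraries and 24.3 ± 0.68 CPM in vector libraries (SD, n = 3 each). It overlapped between resistant and parental cells (log2 -0.10 ± 0.08 SE, adjusted p = 0.34). BRCA1 itself rose 1.22-fold with the plasmid, the smallest increase of its group, at 73.0, 75.3 and 74.7 CPM in plasmid libraries against 62.2, 61.9 and 58.6 CPM in vector libraries. In resistant cells BRCA1 had 47.9, 46.5 and 49.9 CPM, against 48.7, 49.8 and 47.3 CPM in parental cells, so these groups overlapped (log2 -0.02 ± 0.06 SE, adjusted p = 0.84).

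**Figure D2:**
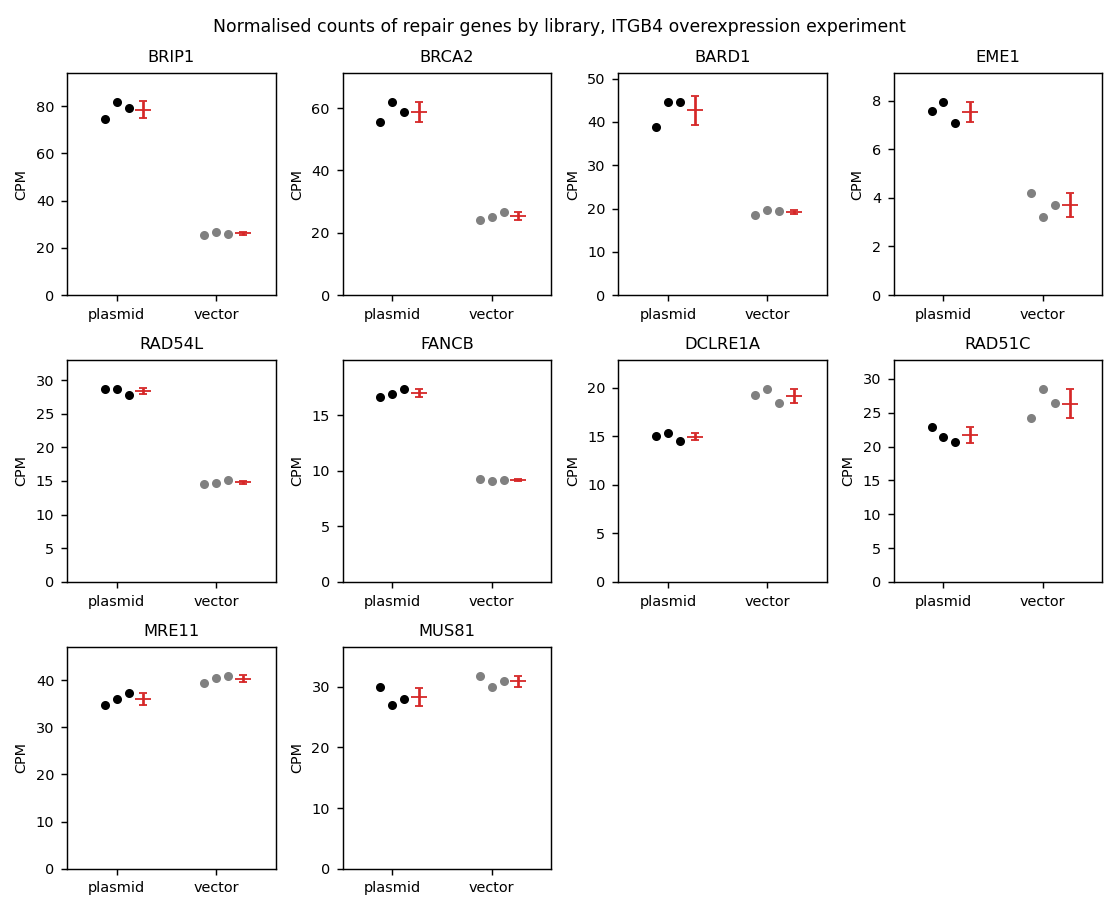
Level in CPM of the 6 genes with the largest increases and the 4 that fell in the overexpression experiment, 1 panel a gene, each axis from 0, with ITGB4 plasmid libraries left of vector libraries. Points are single libraries, and red marks are the mean and SD of 3. BRIP1, BRCA2 and BARD1 lie well apart, while the MUS81 libraries of the 2 groups overlap.

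The promoters of the genes with the 2 largest increases and decreases of each experiment, among those with a promoter in the table, are shown because their levels moved most. FANCF was left out since the stretch nearest its start that lies in no annotated exon was too short to show. The stretches are RefSeq sequence on GRCh38.p14, read 5′ to 3′ on the gene's own strand, limited to at most 150 bases that lie in no exon of GENCODE 29. Capitals mark CCAAT, the box bound by NF-Y, here read as ATTGG on the printed strand. The BRIP1 stretch is chr17:61863529-61863678 (minus strand), BRCA2 is chr13:32315345-32315473 (plus), BARD1 is chr2:214809712-214809861 (minus), RAD51C is chr17:58692423-58692572 (plus), DCLRE1A is chr10:113854101-113854238 (minus) and RBBP8 is chr18:22933165-22933314 (plus).
BRIP1: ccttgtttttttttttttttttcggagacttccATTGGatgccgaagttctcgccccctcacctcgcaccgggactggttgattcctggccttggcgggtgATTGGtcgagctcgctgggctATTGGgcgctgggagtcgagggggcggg
BRCA2: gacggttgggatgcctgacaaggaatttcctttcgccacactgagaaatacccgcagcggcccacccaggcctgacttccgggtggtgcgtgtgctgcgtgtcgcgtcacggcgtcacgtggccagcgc
BARD1: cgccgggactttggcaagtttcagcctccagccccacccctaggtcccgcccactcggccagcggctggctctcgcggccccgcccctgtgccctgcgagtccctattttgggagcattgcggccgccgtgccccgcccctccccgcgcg
RAD51C: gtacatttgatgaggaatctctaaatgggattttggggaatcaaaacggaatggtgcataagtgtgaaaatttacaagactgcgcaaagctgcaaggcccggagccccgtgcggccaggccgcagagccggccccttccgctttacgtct
DCLRE1A: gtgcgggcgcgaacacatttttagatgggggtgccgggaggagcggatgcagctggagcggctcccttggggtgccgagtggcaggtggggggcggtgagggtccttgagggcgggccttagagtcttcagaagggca
RBBP8: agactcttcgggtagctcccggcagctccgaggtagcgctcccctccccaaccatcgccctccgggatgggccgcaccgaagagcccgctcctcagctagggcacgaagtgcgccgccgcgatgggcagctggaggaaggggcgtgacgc
The BRIP1 stretch holds 3 CCAAT boxes within 117 bases of the start, and the other 5 stretches hold none. Over windows from 250 bases before to 50 bases after the first start, 37 of the 41 genes had a RefSeq promoter. On either strand, 15 of the 37 windows (40.5%) held CCAAT, against 35.7% of the windows of all 27305 genes. An E2F motif was searched as TTTCGCG, as the form TTTGGCG, as the form TTTCCCG and as the form TTTGCCG, and it was in 9 of the 37 (24.3%), against 8.69% of all windows. The CHR motif of mitotic genes, searched as TTTGAA and as the form TTCGAA, was in 4 (10.8%), against 16.6% of all. With the plasmid, an E2F motif was in 7 of the 28 genes with a window that rose, 0 of the 4 that fell and 2 of the 5 that did not pass, and CCAAT was in 12, 2 and 1 of them. In resistant cells an E2F motif was in 2 of the 7 that rose, 5 of the 15 that fell and 2 of the 15 that did not pass, and CCAAT was in 4, 7 and 4 of them. A match describes the letters in the window and was not tested against the changes.

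The Fanconi core complex recognises the crosslink and carries the ligase FANCL. Of the 9 genes of the core and UBE2T, 8 rose with the plasmid and none fell, with a median log2 change of 0.61, and FANCC did not pass. In resistant cells 5 fell, 1 rose and 3 did not pass, with a median of -0.24. FANCB, a core subunit encoded on the X chromosome, had 16.7, 16.9 and 17.4 CPM in plasmid libraries, against 9.24, 9.12 and 9.20 CPM in vector libraries. In resistant cells it had 6.40, 6.73 and 6.14 CPM, against 8.35, 9.19 and 10.996 CPM in parental cells. FANCB was the core gene that moved most in either direction, 1.85-fold higher with the plasmid (log2 0.89 ± 0.06 SE, adjusted p = 1.5e-09) and 1.48-fold lower in resistant cells (log2 -0.57 ± 0.13 SE, adjusted p = 0.00095).

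FANCM, the translocase that anchors the core complex on DNA, rose 1.53-fold with the plasmid and was 1.48-fold lower in resistant cells. FANCA and FANCG, which bind each other within the core, rose 1.71-fold and 1.67-fold with the plasmid, and UBE2T rose 1.598-fold. In resistant cells FANCA (log2 -0.28), FANCG (log2 -0.27) and UBE2T (log2 -0.24) passed the test by small margins, with adjusted p-values of 0.0053, 0.021 and 0.025. The FANCG call was lost without parental library a or c or resistant library 2 or 3 (adjusted p = 0.056 to 0.10), and the UBE2T call without parental library a or resistant library 3 (adjusted p = 0.14 and 0.12). Exons of FANCA share 23.6% of their bases with ZNF276 on the opposite strand, and its reads may be mixed with those of ZNF276.

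FANCF, the adaptor of the core complex, went the other way in resistant cells. It had 20.7, 22.5 and 21.9 CPM there, against 15.9, 16.0 and 15.6 CPM in parental cells, with every resistant library above every parental one (1.37-fold higher, log2 0.46 ± 0.08 SE, adjusted p = 8.5e-05). With the plasmid it had 8.26, 8.75 and 9.16 CPM, against 7.72, 7.48 and 7.75 CPM in vector libraries. That change of 1.14-fold passed narrowly (adjusted p = 0.035) and was lost without plasmid library 2 or 3 or any 1 of the vector libraries (adjusted p = 0.054 to 0.14). FANCE and FANCL rose 1.20-fold and 1.21-fold with the plasmid and did not pass in resistant cells.

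FANCD2 and FANCI form the clamp that receives ubiquitin, and both rose with the plasmid and fell in resistant cells, by unequal amounts. FANCI had 275, 287 and 282 CPM in plasmid libraries, against 171, 168 and 174 CPM in vector libraries, 1.64-fold higher. FANCI had 106, 122 and 128 CPM in resistant cells, against 178, 171 and 171 CPM in parental cells, 1.46-fold lower. FANCD2 rose only 1.09-fold with the plasmid, at 44.1 ± 0.18 CPM in plasmid libraries and 40.5 ± 1.01 CPM in vector libraries (SD, n = 3 each), and was 1.30-fold lower in resistant cells. The plasmid call of FANCD2 was lost with upper quartile factors (adjusted p = 0.15), in DESeq2 (adjusted p = 0.059) and with all 12 libraries in 1 fit (adjusted p = 0.18). Per kilobase of exon, FANCI stood first among the 41 in the overexpression experiment, at 36.2 CPM per kb in plasmid libraries and 22.0 in vector libraries, and second to NBN in the resistance experiment.

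RAD51B, RAD51C, RAD51D, XRCC2 and XRCC3 form complexes that promote strand exchange, and they did not move as 1 group. With the plasmid 3 of the 5 rose and 1 fell, and in resistant cells 2 rose and 1 fell. RAD51C, which takes part in more than 1 of these complexes, had 22.9, 21.4 and 20.7 CPM in plasmid libraries, against 24.2, 28.5 and 26.4 CPM in vector libraries. RAD51C had 25.6, 27.8 and 25.4 CPM in resistant cells, against 16.4, 19.5 and 22.1 CPM in parental cells. It was therefore lower with the plasmid (log2 -0.29 ± 0.06 SE, adjusted p = 0.00047) and higher in resistant cells (log2 0.44 ± 0.10 SE, adjusted p = 0.00078), the reverse of BRIP1, with no overlap in either experiment.

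XRCC2, which pairs with RAD51D, had 12.1, 11.4 and 14.8 CPM in resistant cells, against 19.6, 21.8 and 18.7 CPM in parental cells. It was 1.57-fold lower there (log2 -0.65 ± 0.10 SE, adjusted p = 4.2e-05) and 1.35-fold higher with the plasmid. XRCC3, the partner of RAD51C, was higher in both experiments. Its libraries had 31.0, 31.7 and 32.5 CPM with the plasmid, against 22.5, 22.8 and 23.3 CPM with vector. In resistant cells XRCC3 had 33.1, 26.8 and 26.9 CPM, against 24.8, 22.4 and 22.2 CPM in parental cells, with resistant library 1 the highest. The increases were 1.39-fold and 1.248-fold (adjusted p = 5.2e-08 and 0.0053), but 76.7% of the exonic bases of XRCC3 are shared with KLC1 on the opposite strand. RAD51D rose 1.18-fold with the plasmid, and RAD51B passed in neither experiment.

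RAD54L and RAD54B are motor proteins that remodel DNA during strand exchange, and RAD52 anneals single strands. All 3 rose with the plasmid, and RAD54L and RAD54B fell in resistant cells. RAD54L had 28.7, 28.6 and 27.8 CPM in plasmid libraries, against 14.6, 14.8 and 15.1 CPM in vector libraries, 1.91-fold higher (log2 0.93 ± 0.05 SE, adjusted p = 2.8e-11). Exons of RAD54L share 25.1% of their bases with LRRC41 on the opposite strand. RAD54B had 3.80, 3.23 and 3.34 CPM in resistant cells, against 6.73, 5.73 and 6.76 CPM in parental cells. That decrease of 1.86-fold (log2 -0.89 ± 0.15 SE, adjusted p = 6.5e-05) rests on a gene with 59.1% of its exonic bases shared with FSBP on the same strand. RAD52 rose 1.31-fold with the plasmid. In resistant cells it had 20.1, 20.9 and 19.96 CPM, against 17.8, 19.0 and 16.8 CPM in parental cells, which did not overlap but did not pass (log2 0.19 ± 0.08 SE, adjusted p = 0.058).

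End resection exposes the single strand that recombination needs. Its genes moved apart: MRE11, RAD50 and NBN encode 1 complex, and RBBP8 encodes CtIP, which starts the cut with it. RBBP8 had 39.996, 36.7 and 40.4 CPM in resistant cells, against 21.7, 21.4 and 19.2 CPM in parental cells. Each resistant library was well above each parental one, and the increase of 1.88-fold (log2 0.91 ± 0.07 SE, adjusted p = 1.3e-08) was the largest increase of the 41 that passed in the resistant cells. With the plasmid RBBP8 had 96.6, 99.3 and 97.5 CPM, against 78.2, 73.8 and 73.2 CPM in vector libraries, 1.31-fold higher.

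NBN, the subunit that recruits the checkpoint kinase ATM, had 161, 170.0 and 178 CPM in resistant cells, against 261, 273 and 279 CPM in parental cells. It was 1.598-fold lower there (log2 -0.68 ± 0.05 SE, adjusted p = 9.8e-10), yet per kilobase of exon it still stood first of the 41 in both groups, at 27.6 CPM per kb in resistant cells and 44.1 in parental cells. With the plasmid NBN was 1.28-fold higher. MRE11, the nuclease of the complex, had 34.8, 36.0 and 37.2 CPM in plasmid libraries, against 39.4, 40.5 and 40.9 CPM in vector libraries. That was a decrease of 1.12-fold with no overlap (log2 -0.16 ± 0.04 SE, adjusted p = 0.0020), and MRE11 did not pass in resistant cells (log2 -0.06). RAD50 passed in neither experiment, and 79.7% of its exonic bases are shared with other annotated genes.

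The helicase BLM dissolves joined recombination intermediates with RMI1 and RMI2. All 3 rose with the plasmid, BLM by 1.63-fold, RMI1 by 1.71-fold and RMI2 by 1.58-fold. In resistant cells BLM fell to 18.4, 24.99 and 24.6 CPM, against 29.8, 30.1 and 30.6 CPM in parental cells (1.33-fold lower, adjusted p = 0.0015), with resistant library 1 the lowest. RMI1 and RMI2 overlapped between resistant and parental cells.

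Of the 4 ATR checkpoint genes, all rose with the plasmid, while in resistant cells 2 rose and 2 fell. ATR, the kinase that senses stalled forks, had 42.8, 49.4 and 49.2 CPM in resistant cells, against 39.9, 38.4 and 39.7 CPM in parental cells. With the plasmid ATR had 62.6, 64.2 and 64.4 CPM, against 55.4, 55.2 and 54.5 CPM in vector libraries. Both increases were small, 1.20-fold and 1.16-fold, without overlap. ATRIP, the partner that brings ATR to single-stranded DNA, had 19.0, 18.8 and 17.4 CPM in resistant cells, against 14.6, 15.3 and 15.0 CPM in parental cells. It had 12.3, 11.4 and 11.3 CPM in plasmid libraries, against 8.94, 8.49 and 8.70 CPM in vector libraries. ATRIP was thus 1.23-fold higher in resistant cells and 1.34-fold higher with the plasmid, though 27.9% of its exonic bases are shared with TREX1 on the same strand.

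CHEK1, the effector kinase below ATR, went with the larger set: it had 32.4, 34.97 and 28.5 CPM in resistant cells, against 51.9, 47.6 and 50.5 CPM in parental cells. It was 1.57-fold lower there (adjusted p = 8.4e-07) and 1.13-fold higher with the plasmid. TOPBP1, the activator of ATR, rose 1.29-fold with the plasmid. Its decrease in resistant cells, to 60.7 ± 3.91 CPM against 67.8 ± 3.54 CPM in parental cells (SD, n = 3 each), was lost without parental library a or b or resistant library 1 (adjusted p = 0.16, 0.057 and 0.12).

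The last group holds nucleases, their partners and scaffold, and the helicase HELQ. Of its 6 genes, 2 were higher and 2 lower with the plasmid, where 36.5% and 35.7% of all genes were so. In resistant cells 1 was higher and 1 lower, where 26.8% and 27.7% of all genes were so. EME1, the partner of MUS81, had 7.58, 7.94 and 7.09 CPM in plasmid libraries, against 4.22, 3.20 and 3.70 CPM in vector libraries, 2.03-fold higher (log2 1.02 ± 0.11 SE, adjusted p = 1.8e-07). It overlapped between resistant and parental cells (log2 -0.02 ± 0.16 SE). MUS81, the catalytic subunit, went against its partner with the plasmid, at 29.9, 27.0 and 28.1 CPM in plasmid libraries against 31.8, 29.9 and 30.9 CPM in vector libraries. The libraries of the 2 groups overlapped in this decrease of 1.09-fold (adjusted p = 0.025). The call was lost without plasmid library 2 or 3 or vector library 1 or 3 (adjusted p = 0.062 to 0.13). In resistant cells MUS81 had 46.9, 43.8 and 45.4 CPM, against 35.1, 42.3 and 38.3 CPM in parental cells, 1.18-fold higher (adjusted p = 0.0085), a call lost without parental library a (adjusted p = 0.074).

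SLX4, the scaffold that holds several of these nucleases, had 17.7, 18.5 and 17.6 CPM in plasmid libraries, against 12.7, 11.1 and 11.7 CPM in vector libraries. It had 8.37, 8.64 and 9.14 CPM in resistant cells, against 14.5, 13.7 and 12.9 CPM in parental cells. Its changes were of like size in opposite directions, 1.51-fold higher with the plasmid (log2 0.60 ± 0.07 SE) and 1.57-fold lower in resistant cells (log2 -0.65 ± 0.10 SE). DCLRE1A, a nuclease of crosslink repair, had 15.0, 15.3 and 14.6 CPM in plasmid libraries, against 19.2, 19.9 and 18.5 CPM in vector libraries. This was the largest decrease of the 41 with the plasmid, 1.28-fold (log2 -0.36 ± 0.06 SE, adjusted p = 2.7e-05), and DCLRE1A did not pass in resistant cells. FAN1 and HELQ, a nuclease and a helicase, passed in neither experiment, and FAN1 stood last of the 41 per kilobase of exon in every group.

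**Figure D3:**
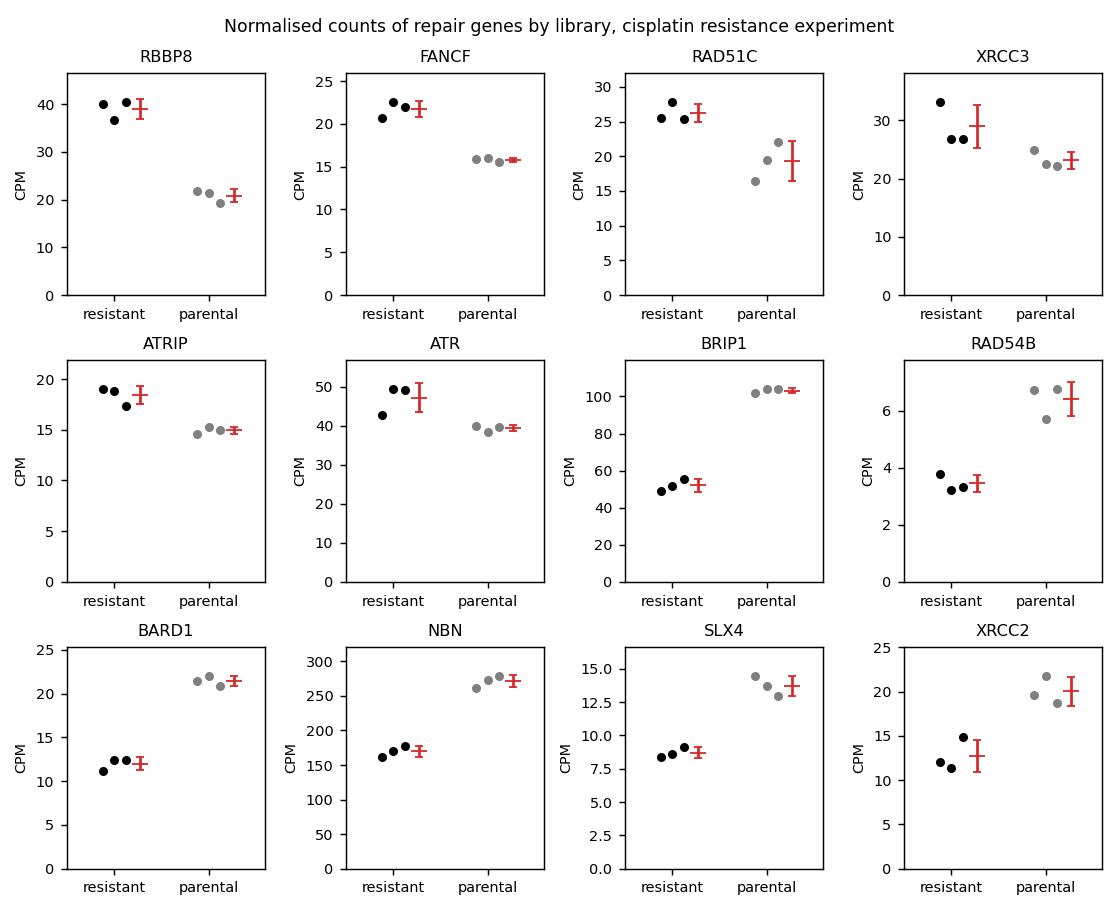
Level in CPM of the 6 genes with the largest increases and the 6 with the largest decreases that passed in the resistance experiment, 1 panel a gene, each axis from 0, with cisplatin-resistant libraries left of parental libraries. Points are single libraries, and red marks are the mean and SD of 3. RBBP8 lies higher in resistant cells and BRIP1, BARD1 and NBN lie lower, with no overlap between the groups.

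Set side by side, 18 of the 41 genes (43.9%) were higher with the plasmid and lower in resistant cells, against 16.6% of the 15655 genes tested in both experiments. They were BARD1, BLM, BRCA2, BRIP1, CHEK1, FANCA, FANCB, FANCD2, FANCG, FANCI, FANCM, NBN, RAD54B, RAD54L, SLX4, TOPBP1, UBE2T and XRCC2. The reverse held for 2 (4.88%), MUS81 and RAD51C, against 13.4% of all. ATR, ATRIP, FANCF, RBBP8 and XRCC3, 5 genes (12.2%), were higher in both, against 7.11% of all, and none was lower in both, against 7.72%. The experiments share no library, but they differ in medium, and how the resistance table was made is not given.

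The difference between the plasmid change and the resistance change was tested in 1 fit of all 12 libraries. It passed for 30 of the 41 genes, where 69.3% of all genes passed. The plasmid change was the higher one in 25, where 34.1% of all genes were so, and the lower one in 5, against 35.2% of all. Those 5 were FANCF, RAD51C, RBBP8, MUS81 and DCLRE1A. The median difference of the 41 was 0.49 on the log2 scale, against -0.03 over all genes tested. BRIP1 differed most, by 2.54 ± 0.07 on the log2 scale (SE, adjusted p = 2.0e-17), followed by BARD1 at 1.96 ± 0.10 and BRCA2 at 1.80 ± 0.10. For XRCC3, ATR and ATRIP, which rose in both, the difference did not pass.

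**Figure D4:**
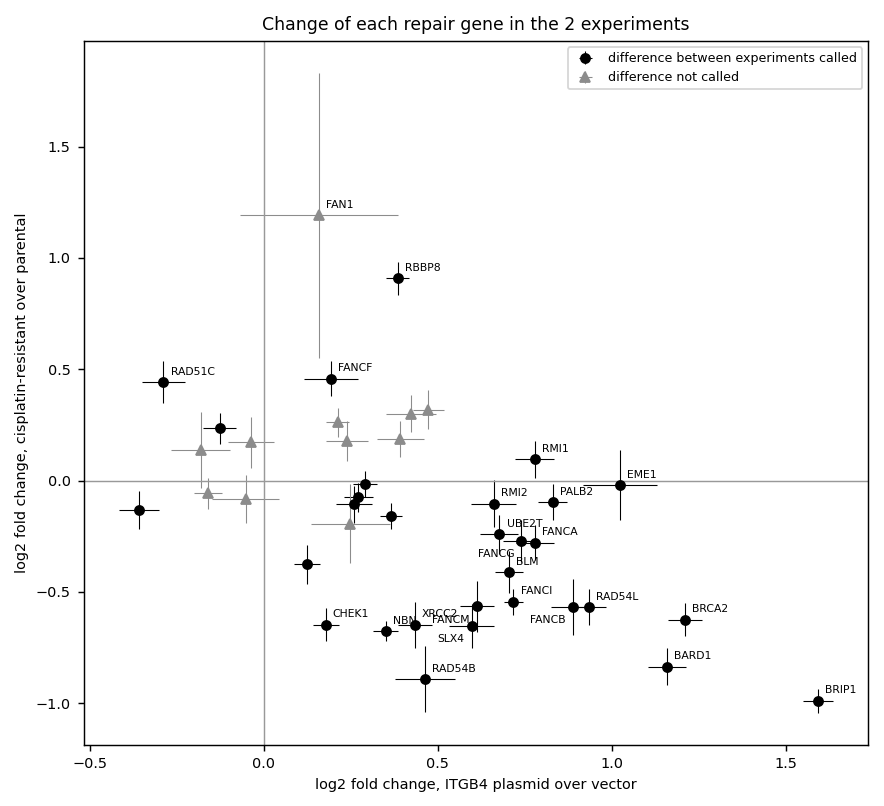
Log2 fold change with the ITGB4 plasmid (horizontal axis) against log2 fold change in cisplatin-resistant cells (vertical axis) for the 41 genes, each from its own experiment, with bars of 1 approximate standard error to each side. Black circles mark a difference between the experiments that passed and grey triangles one that did not. The 18 genes higher with the plasmid and lower in resistant cells lie right of and below the 0 lines, with BRIP1 at the far end, and RAD51C and MUS81 lie left of and above them.

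Most of these changes were modest. When a change had to exceed 1.5-fold (glmTreat), 12 of the 41 were higher with the plasmid, where 11.1% of all genes were so, and 0 lower, where 11.4% were. In resistant cells RBBP8 alone was higher past 1.5-fold and BRIP1 and BARD1 were lower, where 6.17% and 6.31% of all genes were so. The split in resistant cells also depended on the scaling. Library sizes alone moved the median log2 change of all genes to 0.18, against 0.02 with TMM factors. Then 12 of the 41 were higher and 14 lower (46.2% higher among those called, against 28.0% with TMM). Upper quartile factors gave 11 higher and 14 lower (44% higher). Over all genes called, the share higher also moved, to 67.8% with library sizes alone and 61.6% with upper quartile factors, against 49.1% with TMM. The decreases of FANCA, FANCG, UBE2T and TOPBP1 were lost under library sizes alone and upper quartile factors. The other 14 decreases, among them those of BRIP1, BARD1, BRCA2, NBN, SLX4 and RAD54B, passed under each scaling. So did all 7 increases, among them that of RBBP8. BRCA1 was called higher (log2 0.15) with library sizes alone.

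Cell cycle genes also changed, not always in the direction of these repair genes, and their part in the result was not tested. Of 16 S phase markers, 15 rose with the plasmid and none fell (median log2 change 0.67). RRM2, a subunit of ribonucleotide reductase, was 2.22-fold higher and the replication licensing factor CDC6 1.88-fold higher. In resistant cells 13 of the 16 rose and 1 fell (median 0.70), among them the helicase subunits MCM5 and MCM6 at 2.37-fold and 2.44-fold higher. Of 15 G2/M markers, 4 rose and 9 fell with the plasmid (median -0.23), and CENPF, a kinetochore protein, was 1.77-fold lower and the cyclin CCNB2 1.65-fold lower. In resistant cells all 15 fell (median -1.62), CDC20, which switches on the ligase that starts anaphase, to 27.5 ± 0.56 CPM against 127 ± 2.36 CPM in parental cells, and the mitotic kinase AURKA to 32.5 ± 0.95 CPM against 145 ± 2.85 CPM in parental cells (SD, n = 3 each). The summed level of the 15 lay between 663 and 699 CPM in resistant cells and between 2107 and 2131 CPM in parental cells. With the plasmid it lay between 1491 and 1512 CPM, against 1706 to 1720 CPM with vector.

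Other genes of the same pathways were followed on lists of their own. Over all genes tested, 36.5% rose and 35.7% fell with the plasmid, and 26.8% rose and 27.7% fell in resistant cells. The counts of some lists lay near these shares. Of 11 further Fanconi genes tested, 7 rose and 3 fell with the plasmid, and 3 rose and 5 fell in resistant cells. UHRF1, a sensor of crosslinks, was 2.45-fold higher with the plasmid, and the ubiquitin ligase RFWD3 was 1.96-fold higher with the plasmid and 1.32-fold lower in resistant cells. ERCC1, part of the nuclease that unhooks the crosslink, had 35.4, 32.6 and 32.6 CPM in resistant cells, against 22.4, 22.1 and 20.9 CPM in parental cells, 1.54-fold higher with no overlap. Exons of ERCC1 share 28.6% of their bases with CD3EAP on the opposite strand. Of 29 further recombination genes, 17 rose and 6 fell with the plasmid, and 9 rose and 9 fell in resistant cells. TOP3A, the topoisomerase that works with BLM, was 1.62-fold higher with the plasmid, and RAD51AP1, which stimulates strand invasion, was 1.63-fold higher. DNA2, a nuclease of long-range resection, was 1.52-fold lower in resistant cells, and ZSWIM7, which binds SWSAP1, was 1.64-fold higher.

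Damage signalling genes outside the 41 showed 12 of 21 higher and 5 lower with the plasmid, and 3 of 20 higher and 12 lower in resistant cells. ATM, the kinase that answers double-strand breaks, ran against the repair genes, with 54.8, 59.6 and 56.9 CPM in plasmid libraries, against 104, 102 and 104 CPM in vector libraries. It was 1.81-fold lower with the plasmid without overlap and 1.39-fold higher in resistant cells. CLSPN, which couples ATR to CHEK1, was 2.44-fold higher with the plasmid. In resistant cells the mitotic phosphatase CDC25C was 2.86-fold lower and the ubiquitin ligase RNF168 was 1.39-fold lower. Of 15 genes of end joining, the competing repair of breaks, 5 were higher and 5 lower with the plasmid, where 36.5% and 35.7% of all genes were so, and 6 were higher and 5 lower in resistant cells, where 26.8% and 27.7% were. POLQ, the polymerase of microhomology-mediated joining, was 1.64-fold higher with the plasmid and 2.10-fold lower in resistant cells. The nuclease gene DCLRE1C was 2.01-fold higher with the plasmid, and PRKDC, the kinase of classical end joining, was 1.39-fold higher in resistant cells.

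**Figure D5:**
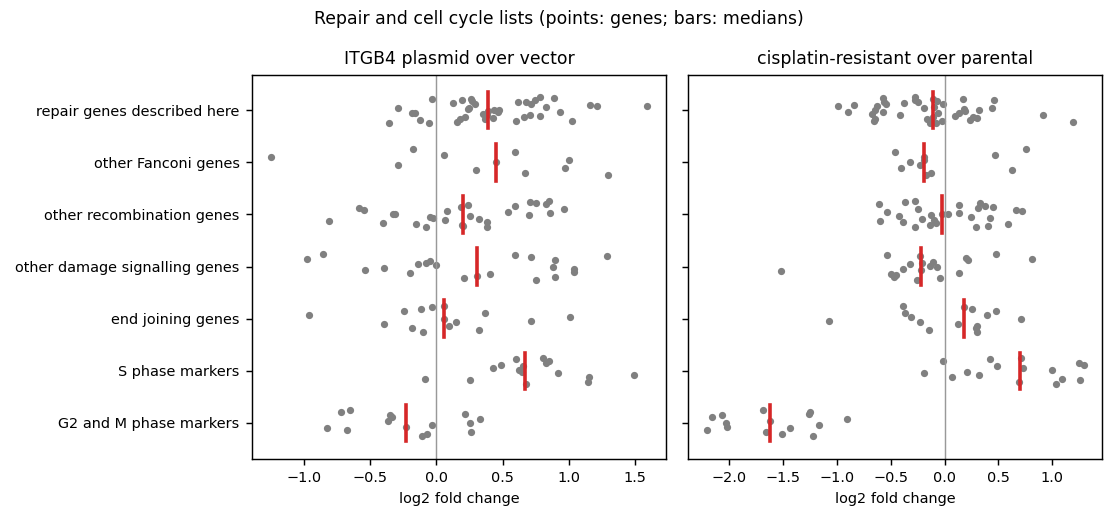
Log2 fold change of the 41 repair genes and of each list of other pathway and cell cycle genes, for ITGB4 plasmid over vector and for cisplatin-resistant over parental cells. Grey points are genes and red bars are medians. The median of the S phase markers is high in both (0.67 and 0.70), while that of the G2/M markers reaches -1.62 in resistant cells.

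The 41 genes varied little among replicates of 1 group. Their median coefficient of variation was 3.86% in plasmid libraries, 3.04% in vector libraries, 6.89% in resistant cells and 5.32% in parental cells, and FAN1 varied most in each group. Among the 18 genes that fell in resistant cells, resistant library 1 was the lowest of the 3 resistant libraries for 11. Raw counts of the 41 lay between 64 and 8847 per library in the overexpression table and between 13 and 9942 in the resistance table, so all 41 passed the filter on low counts in both.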

How the data were processed

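The deposited values are raw counts per gene. Per the file headers, the authors made those of the overexpression experiment from read pairs with featureCounts 2.0.1 over exons of Ensembl 107 on GRCh38, and set no strand option, so reads of overlapping or antisense genes cannot be told apart. How the resistance libraries were aligned and counted is not given in the sources used here. Per the submitters' processing notes, the build was hg38. Groups came from the titles, and parental columns, headed NC, were assigned as the only others in the resistant cells' table. No label says whether replicates were separate cultures, and the p-values therefore reflect the spread of these libraries alone, which may be technical. No replicate pair agreed within sampling noise (chi-square per degree of freedom 1.54 to 12.2).

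Symbols matched 61757 of 61860 and 62700 of 62700 identifiers, and 177 of 178 listed genes. Genes passing filterByExpr were tested with TMM factors and edgeR 4.0.16's quasi-likelihood test (R 4.3.3), Benjamini-Hochberg adjusted over all genes tested, with changes called at an adjusted p under 0.05. The SE is the size of the log2 change divided by the root of F, an approximation. CPM uses TMM library sizes. Exon lengths and overlaps come from GENCODE 29. Alternatives were other scalings and filters, DESeq2 1.42.0, limma-voom (limma 3.58.1), glmTreat, a replicate block and leaving out each library. The steps were tested on simulated data.

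Members and lists were chosen with earlier results of these data known. Values of every library are given by a rule: the 6 largest increases and decreases that passed in each experiment among genes averaging at least 1 CPM, and 5 genes called in both experiments for each pattern, alike or opposite. Each list of other genes gave up to 2 called genes with the smallest p. BRCA1, BLM, CHEK1, FANCI and RAD52 were also given in full, chosen after their values were seen. Values of every library for FAN1, ATM, ERCC1, ITGB4 and, in resistant cells, MUS81 were likewise given outside this rule. An item withheld for evaluation is not reported here.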

Additional observations from a re-analysis of the deposited data

How the results depend on the processing

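Requiring more than a 1.5-fold change left 3818 genes called with the plasmid, 12 members higher and 0 lower, and 2107 genes called in resistant cells, 1 member higher and 2 lower. In resistant cells library sizes alone gave 12 members higher and upper quartile factors gave 11, against 7 with TMM factors. Genes called higher over all genes numbered 6548 and 5761 with these scalings, against 4520 with TMM factors. Leaving out 1 library at a time gave 11696 to 12389 genes called with the plasmid, 31 to 33 members higher and 3 to 4 lower. In resistant cells it gave 8331 to 9024 genes called, 6 to 9 members higher and 15 to 17 lower, and between the experiments 29 to 34 members differing. With the plasmid, 33 of 36 called members kept their call under each alternative but the fold threshold, and in resistant cells 20 of 25 did. The exceptions were FANCF, FANCD2 and MUS81 with the plasmid, and FANCA, FANCG, UBE2T, TOPBP1 and MUS81 in resistant cells. With library sizes alone the resistance change of TOPBP1 was 0.0046 (adjusted p = 0.95) and that of BRCA1 was 0.15 (adjusted p = 0.036). Calls appeared for RAD51B without plasmid library 1 (log2 0.35) and with the replicate block (0.24), and for RAD50 without plasmid library 3 (-0.23) or vector library 1 (-0.24), with library sizes alone (-0.22), upper quartile factors (-0.25) and a mean of at least 1 CPM (-0.20), and for FAN1 without vector library 3 (0.62). In resistant cells they appeared without resistant library 3 for PALB2 (-0.20) and RAD51D (0.26), and under other scalings for FANCC, RAD51D, RAD52 and RMI1. With all 12 libraries in 1 fit they appeared for RAD51D (0.20) and RAD52 (0.20). A mean of at least 1 CPM gave a call for RAD52 (0.20), and no low-count filter gave one for FAN1 (1.19). The cause was not tested.

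Same-numbered libraries of the overexpression experiment did not deviate together (correlations of -0.06, -0.08 and -0.06 over 9496 genes). The deviations were taken from means of 3 libraries, so they cannot show whether same-numbered libraries were prepared together. A fit with the replicate block called 12070 genes, 33 members higher and 4 lower. No paired analysis was possible because the parental columns carry no tie to a sample number in the resistance experiment. Low counts, down to 13 in a library of the resistance table, limit what can be called.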

Other observations

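FAN1, a nuclease of crosslink repair, had 0.478, 3.89 and 0.337 CPM in resistant cells, against 0.473, 0.783 and 0.813 CPM in parental cells. Resistant library 2 stood far above the other resistant libraries, and the change over all libraries did not pass (log2 1.19 ± 0.64 SE, edgeR adjusted p = 0.13). With no low-count filter the change over all libraries passed (log2 1.19, edgeR adjusted p = 0.0018). Without resistant library 2 the log2 change was -0.76, and without resistant library 1 or 3 it was 1.62 or 1.68 and passed the test. FAN1 also varied in the overexpression experiment, at 3.37, 4.68 and 3.45 CPM in plasmid libraries and 2.74, 2.23 and 5.09 CPM in vector libraries.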
